A study of Drosophila melanogaster with 2 samples.

Results

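The nuclear transfer RNA (tRNA) genes of Drosophila melanogaster were examined in peak lists from a chromatin immunoprecipitation sequencing (ChIP-seq) experiment on the DNA-binding protein encoded by CG9437, the gene hng1. The members are all genes on the nuclear chromosome arms of the Ensembl annotation whose symbol starts with tRNA: and they number 295 of 18277 annotated genes other than transposable elements. Of these, 290 have the biotype tRNA and 5 are annotated pseudogenes. The study holds 1 group, whole embryos of 0 to 16 hours with both sexes pooled, from a transgenic line whose CG9437 protein ends in GFP. The source label describes the transgene as an insertion targeting hng1. The labels give CG9437 as the antibody, and the promoter that drives the fusion is not stated in them. There are 2 biological replicates and no second condition, so every comparison below is made between genes or regions within the genome. One free-text label calls each library an input control, whereas the assay, antibody and output labels describe a ChIP, and the lists are treated here as ChIP peak lists. No library size accompanies the lists, and the depth behind each value is unknown.

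Transfer RNAs carry amino acids to the ribosome, and most isotypes are read from several gene copies scattered as single genes and small clusters. RNA polymerase III transcribes them from promoters that lie inside the gene. The A box and the B box bind the factor TFIIIC, which places TFIIIB just upstream of the start, and a run of T residues after the gene ends transcription. Protein-coding genes differ from them in this respect, since RNA polymerase II promoters lie around the transcription start site (TSS). The annotated start of a tRNA gene is the first base of the mature tRNA and stands for its TSS here.

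The relation between a tRNA gene, its internal promoter and the nearest summit is shown by the sequences of 3 members with a final peak. All are from dm6 and are read 5′ to 3′ on the strand of the gene. Capitals mark the B box core GTTCNANNC inside the gene and, on either strand outside it, the words ACGTAA and TATCGATA, the first noted in earlier results of these data and the second known from Dref-type promoters. The run for Gly-TCC-1-2 is chr3R:7130947-7131185 on the minus strand, in which the summit is base 51 and the gene begins at base 168.
Gly-TCC-1-2: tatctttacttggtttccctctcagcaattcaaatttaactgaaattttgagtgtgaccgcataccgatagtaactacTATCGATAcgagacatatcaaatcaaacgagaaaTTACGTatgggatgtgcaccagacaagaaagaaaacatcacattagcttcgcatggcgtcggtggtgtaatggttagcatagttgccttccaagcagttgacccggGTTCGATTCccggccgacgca
The run for Asp-GTC-1-6 is chr2L:8619800-8620099 on the plus strand, in which the summit is base 45 and the gene begins at base 229.
Asp-GTC-1-6: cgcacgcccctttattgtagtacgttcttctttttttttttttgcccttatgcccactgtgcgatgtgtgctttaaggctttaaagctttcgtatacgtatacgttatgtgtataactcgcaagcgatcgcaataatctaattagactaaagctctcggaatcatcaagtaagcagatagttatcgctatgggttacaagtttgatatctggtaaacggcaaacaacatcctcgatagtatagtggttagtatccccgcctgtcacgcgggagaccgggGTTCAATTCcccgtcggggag
For Tyr-GTA-1-8 the gene (chr3R:8669081-8669174, minus strand, 94 bp) and its summit window, 50 bp in either direction (chr3R:8669320-8669420, minus strand) are given apart.
Tyr-GTA-1-8 gene: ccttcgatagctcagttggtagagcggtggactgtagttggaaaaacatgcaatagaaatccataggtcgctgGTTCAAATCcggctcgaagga
Tyr-GTA-1-8 summit window: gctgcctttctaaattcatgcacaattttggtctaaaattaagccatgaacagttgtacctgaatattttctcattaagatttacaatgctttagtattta
In these 3 the summit lay upstream of the gene, as in 11 of the 18 final summits at tRNA genes (61.1%, interval 35.7 to 82.7) and 34 of the 61 weaker pooled summits at tRNA genes, and the rest lay downstream of the nearest tRNA start. The distances were 172, 239 and 273 bp from the centre of the B box core of Gly-TCC-1-2, Asp-GTC-1-6 and Tyr-GTA-1-8.

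Few tRNA genes had a strong peak near their start. The authors' final list holds 6091 peaks that passed their reproducibility filter, and the list of candidate regions for the pooled replicates holds 30000. The final peaks are the strongest pooled candidates by signal. A final summit lay within 500 bp of the TSS of 20 of 295 tRNA genes (6.78%, exact Clopper-Pearson 95% interval 4.19 to 10.3), against 25.1% of 13968 protein-coding genes and 20.9% of all genes. A pooled candidate summit of any strength lay there for 85 tRNA genes (28.8%, interval 23.7 to 34.3), against 50.5% of protein-coding genes and 44.6% of all genes. A gene counted if any of its starts had a summit. Protein-coding genes have more starts per gene (19630 for 13968 genes) than tRNA genes (295 for 295), so the windows searched per gene differ. Intervals cover counting over genes only, and neighbouring tRNA genes share summits, so they are too narrow for independent loci.

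The comparison with other noncoding genes was less uneven. Final summits lay at 218 of 2448 long noncoding and antisense RNA genes (8.91%, interval 7.81 to 10.1), at 14 of 260 microRNA genes (5.38%, 2.97 to 8.87) and at 10 of 269 small nucleolar RNA genes (3.72%, 1.80 to 6.73). The interval for tRNA genes overlaps all of these. Among other RNA polymerase III transcripts, none of the 100 annotated 5S ribosomal RNA genes had a summit in any list (interval up to 3.62%). That interval counts the copies as independent genes. How reads from repeated copies were placed is not stated, so an absent summit there does not show that binding was absent. The 3 U6 genes and the 2 genes each of 7SL RNA and of 7SK RNA had no final or pooled summit. Of the U6 genes, 2 had a candidate in replicate 2 and none had one in replicate 1. Of the 2 RNase P and MRP RNA genes, 1 had a pooled candidate and none had a final summit. No test was run between these classes.

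Once shared summits were counted once, the tRNA genes had 79 distinct pooled summits, of which 18 were final. That share (22.8%, interval 14.1 to 33.6) is close to the 20.3% of all pooled candidates that were final, so a candidate at a tRNA gene was final about as often as any other. The signal value, the authors' measure of peak height within a list, had a median of 294 at the 18 final summits (range 156 to 1648), against 258 over all final peaks (148 to 19974). The 61 other summits had a median of 63.3, against 57.1 over all non-final candidates. Within each list, summits at tRNA genes were thus of ordinary height.

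**Figure D1:**
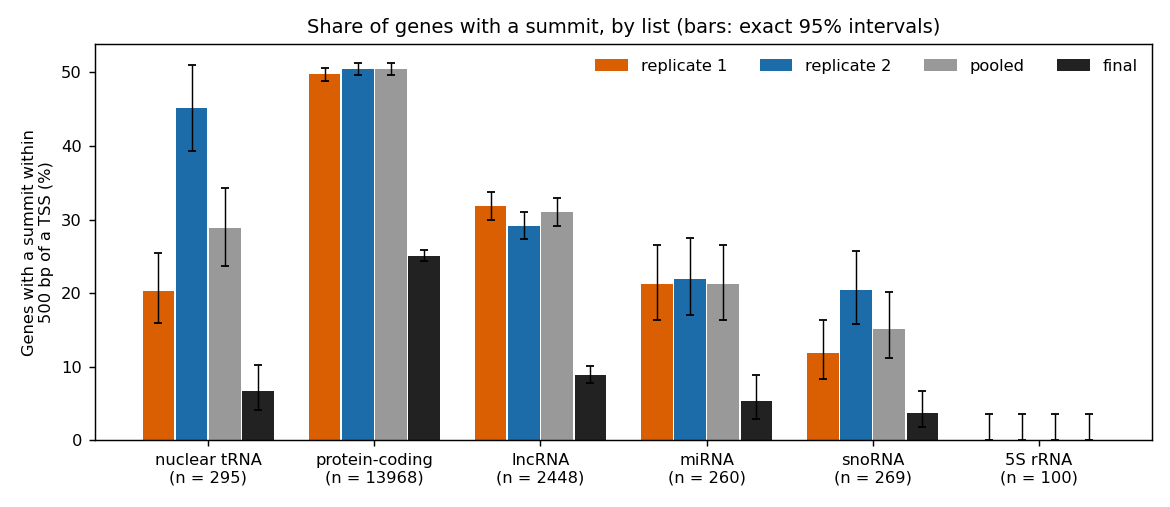
Percentage of genes of each class with a summit within 500 bp of a TSS, for the list of each replicate, the pooled candidates and the final peaks. Error bars are exact Clopper-Pearson 95% intervals. Nuclear tRNA genes reach 6.78% in the final list, and their shares in replicate 1 (20.3%) and replicate 2 (45.1%) lie far apart, whereas those of protein-coding genes are 49.8% and 50.4%.

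Replicate 2 had candidates at more tRNA genes than replicate 1. Each replicate's own list holds 30000 candidates. In replicate 1, 60 of 295 tRNA genes had a candidate summit (20.3%, interval 15.9 to 25.4), while 49.8% of protein-coding genes and 44% of all genes did. In replicate 2 the number was 133 (45.1%, interval 39.3 to 51.0), while 50.4% of protein-coding genes and 44.7% of all genes did. The intervals of the replicates do not overlap for tRNA genes, whereas protein-coding genes moved by under 1 percentage point. These intervals count genes, some of which share summits, within 1 library each. They do not measure the spread between libraries.

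Small nucleolar RNA genes also had more candidates in replicate 2, 55 against 32 of 269, with intervals of 15.8 to 25.8% and 8.28 to 16.4% that overlap slightly. MicroRNA genes had 57 of 260 in replicate 2 and 55 in replicate 1, and long noncoding and antisense RNA genes had 714 of 2448 in replicate 2 and 780 in replicate 1. Both replicates had a candidate at 45 tRNA genes, replicate 2 alone at 88, replicate 1 alone at 15, and neither at 147. For protein-coding genes, 82.7% of those found in replicate 2 were also found in replicate 1, but for tRNA genes 33.8% were (interval 25.9 to 42.5). Of those found in replicate 1, 75% of tRNA genes and 83.8% of protein-coding genes were also found in replicate 2.

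Genes found in 1 replicate alone mostly had candidates of middle or low rank. The 15 of replicate 1 alone had a median rank of 25782 among its 30000 candidates (17526 to 29407). The 45 genes in both had median ranks of 9162 in replicate 1 and 5272 in replicate 2. The 88 of replicate 2 alone had a median rank of 16184 among its 30000 candidates, near the middle of the list. Of these 88, 2 were among the 6091 strongest candidates. These were Trp-CCA-2-6 (signal 131, rank 2838) and His-GTG-1-3 (75.9, rank 6010), named after their values were seen. The summit at Trp-CCA-2-6 is the final summit near tud at Gly-GCC-1-13, which replicate 1 also had (81.4, rank 5978) but beyond 500 bp of Trp-CCA-2-6. When each replicate's list was limited to its 6091 strongest candidates, 25 tRNA genes had a summit in replicate 2 and 19 in replicate 1, with 17 in both. These were 8.47% (interval 5.56 to 12.3) and 6.44% (interval 3.92 to 9.88) of tRNA genes, and the intervals overlap. Among all genes the shares were 20.4% in replicate 2 and 21% in replicate 1. Of the 17 final summits with a partner in both replicates, 12 ranked higher in replicate 2 (70.6%, interval 44 to 89.7). No share over all final peaks stands beside this count, so it cannot be read as a trait of tRNA genes. With 2 libraries, the cause of the difference between replicates was not tested.

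Around tRNA genes, summits were sparse at the gene itself. Pooled summits numbered 16.9 per 100 bp and 1000 starts within 100 bp of a tRNA TSS, from 10 pairs of a gene and a summit. Further out they numbered 42.4 at 100 to 500 bp and 46.4 at 500 to 1000 bp, against a mean of 22.4 over the chromosome arms with candidates. Protein-coding starts had the opposite profile, with 93.9 within 100 bp, 62.8 at 100 to 500 bp and 29.7 at 500 to 1000 bp. In the pooled list the flanks of tRNA genes were thus richer in candidates than the arms on average, and the 100 bp on either side of the start were not.

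Each replicate had fewer summits close to the start than in the flanks. Replicate 1 had 13.5 summits per 100 bp and 1000 starts within 100 bp of a tRNA TSS and 27.1 at 100 to 500 bp. In replicate 2 these values were 38.8 and 70.8, so that the value within 100 bp was above the arms mean of 22.4 in replicate 2 and below it in replicate 1. Among final summits, 1 pair lay within 100 bp and 21 at 100 to 500 bp. No final summit fell inside a tRNA gene (0 of 18, interval up to 18.5%), and 3 of the 61 other summits did. The closest final summit lay 23 bp from the end of Arg-CCT-1-2, and the median distance from a gene body was 259 bp.

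Most tRNA genes are repeated sequence, and 238 of the 295 share their exact sequence with at least 1 other member. Genes with identical copies had a pooled candidate within 500 bp in 66 of 238 cases (27.7%, interval 22.1 to 33.9). Those of unique sequence had one in 19 of 57 cases (33.3%, interval 21.4 to 47.1), and the intervals overlap. The labels do not state how reads from identical copies were placed, and the part of this in the dip was not tested.

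**Figure D2:**
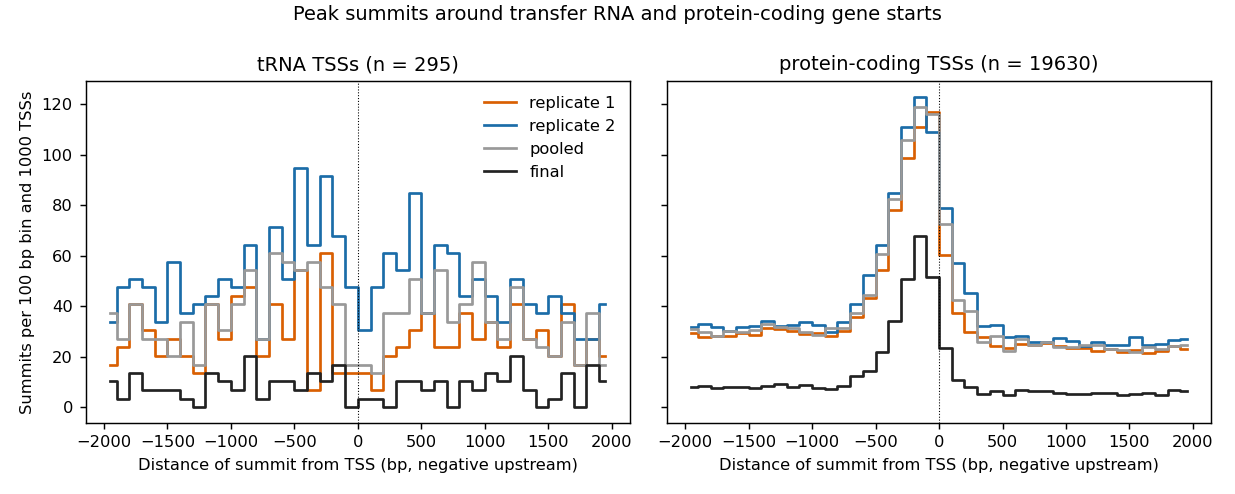
Summits per 100 bp bin and 1000 annotated starts, by distance from the TSS in bp (negative upstream), at 295 tRNA starts on the left and at protein-coding starts on the right, for 4 lists. Around tRNA genes the pooled line falls near the start, where 10 pairs lie within 100 bp, and around protein-coding genes it is highest just upstream.

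The strongest summits belonged to the 3 genes of Ala-CGC, which lie within the protein-coding gene gol, a gene for a RING-type ubiquitin ligase. A pair of neighbouring summits lay there, and each was within 500 bp of 2 of the 3 genes. The first, on arm 2R at 25076371, had a signal of 1648 in the pooled list (rank 195), 751 in replicate 1 (rank 257) and 933 in replicate 2 (rank 167). It lay 366 bp downstream of the start of Ala-CGC-1-1 and 394 bp upstream of that of Ala-CGC-1-2. The second, at 25076571, had 1365 in the pooled list, 563 in replicate 1 and 700.1 in replicate 2, at -194 bp from Ala-CGC-1-2 and -477 bp from Ala-CGC-1-3. Each replicate thus ranked the pair within the top 380 summits of its list.

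No protein-coding TSS lay near these summits: that of gol was 7776 bp or more away. The 200 bp between the summits is close to the smallest spacing in the pooled list, 199 bp, and summits up to 500 bp apart had a median spacing of 214 bp. Both summits stand in 1 called region, from 25075966 to 25076868, so the count of distinct summits is larger than that of regions.

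A similar pair lay at Arg-CCT on 2R. The stronger summit, at 20000273, had 425 in the pooled list and 322 in replicate 2 (rank 781), and replicate 1 had no summit within 100 bp of it. Its neighbour at 20000476 had 243 in the pooled list, 130.2 in replicate 1 and 156 in replicate 2. Replicate 1 placed its own strongest summit between these 2, 116 bp from the first. Arg-CCT-1-2 was within 500 bp of both and Arg-CCT-1-3 within 500 bp of the second, and the nearest protein-coding TSS was over 4 kb away. The stronger of the 2 summits had ACGTAA within 50 bp.

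**Figure D3:**
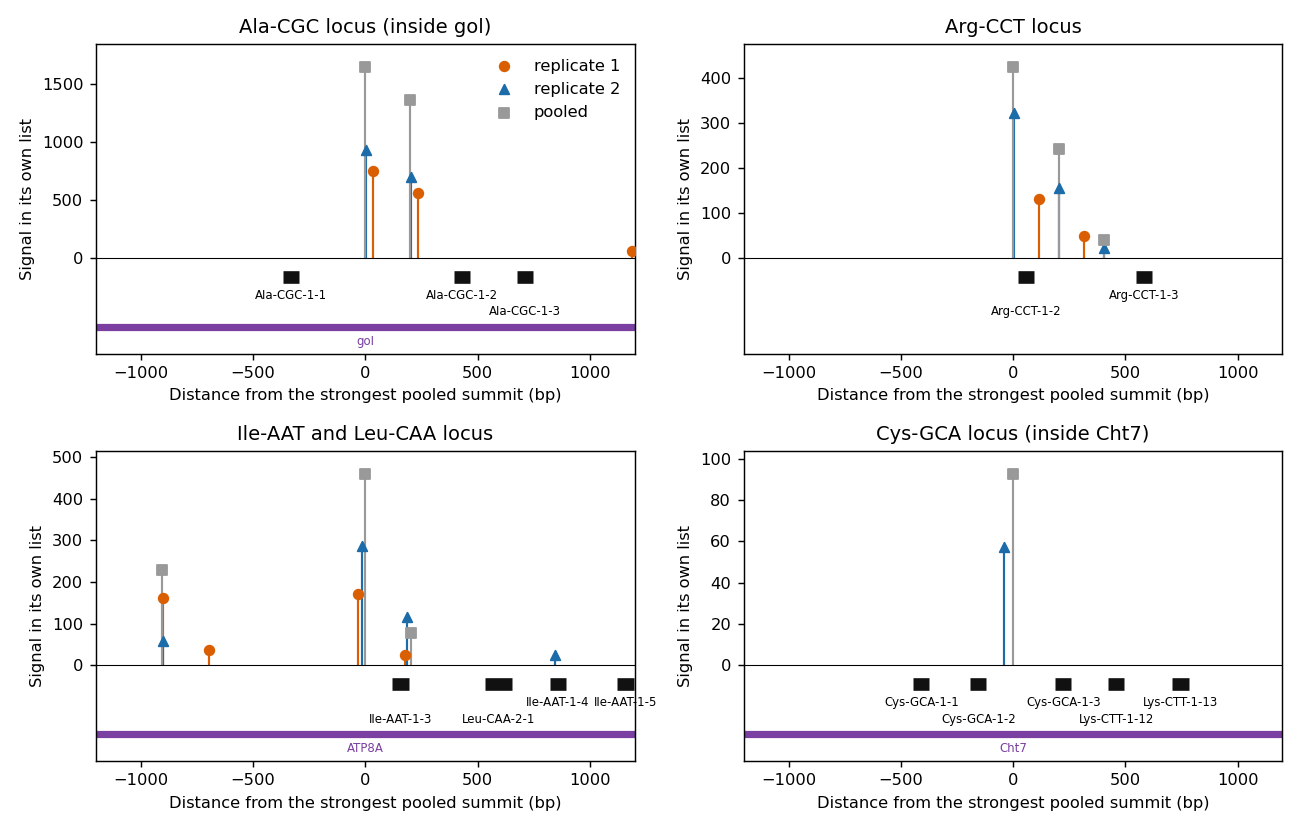
Summits at 4 tRNA loci, with distance from the strongest pooled summit in bp on the x axis and the signal of each summit in its own list on the y axis. Black boxes are tRNA genes and purple bars protein-coding genes. At Ala-CGC all lists place summits between genes, and at Cys-GCA the pooled summit (92.6) had a partner in replicate 2 (57.4) and none in replicate 1.

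Other final summits without a protein-coding TSS within 500 bp were lower. Asp-GTC-1-6, inside the semaphorin gene Sema1a, had 365 in the pooled list, 157 in replicate 1 and 214 in replicate 2, at -184 bp. Gln-TTG-2-1 had 302, with 143 and 158 in replicates 1 and 2, at -271 bp. A summit shared by Thr-AGT-2-1 and Thr-AGT-1-2 had 266, with 81 in replicate 1 (rank 6014) and 193 in replicate 2 (rank 1641). These 3 were higher in rank in replicate 2.

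Near the lower edge of the final list, whose weakest peak had 148, stood Phe-GAA-1-6 (165), Pro-AGG-1-1 (159) and Glu-TTC-1-5 (156). Phe-GAA-1-6 and Pro-AGG-1-1 had 86 and 83 in replicate 1 and 84.1 and 89.7 in replicate 2. Glu-TTC-1-5 differed more, with 106 (rank 4492) and 45 (rank 11589), and the small nucleolar RNA gene snoRNA:185 started 32 bp from its summit. Just outside the list was a summit shared by Ala-AGC-2-5 and Pro-TGG-1-3 with 146 (rank 6197). A second summit at Thr-AGT-1-2, a gene that also has a final one, followed with 129 (rank 7131). Next came one shared by Ser-TGA-2-1 and Ser-TGA-1-1 (113) and one at Gly-GCC-1-4 (109).

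Protein-coding starts lay within 500 bp of 8 of the 18 final summits at tRNA genes (44.4%, interval 21.5 to 69.2), against 52.2% of all final peaks. Among the 61 other summits the number was 7 (11.5%, interval 4.74 to 22.2), against 23.5% of all non-final candidates. Neither share was above that of peaks in general. In 13 of the 18, the nearest start of any gene was that of a tRNA gene, so part of the final peaks counted for tRNA genes lay nearer to another gene.

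For 3 summits the protein-coding start was nearly at the summit. Trp-CCA-2-2 had 884 in the pooled list (rank 491), 543 in replicate 1 and 354 in replicate 2. That summit lay 4 bp from a start of CG30122 and at -291 bp from the tRNA gene. Phe-GAA-1-2 had 381, with 224 and 156 in replicates 1 and 2, and its summit lay 14 bp from a start of RpL17, which encodes a protein of the large ribosomal subunit. Gly-GCC-1-13 had 205, with 81.4 and 131, and its summit lay 68 bp from a start of tud, the germ plasm gene tudor. These tRNA genes were the more distant neighbour of the summit.

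At 5 others the tRNA gene and the protein-coding gene were both some distance away. Tyr-GTA-1-8 had 803 (rank 573), with 455 in replicate 1 and 348 in replicate 2, at -196 bp, and a start of CG8036 lay 248 bp from the summit. Ile-AAT-1-3 had 459, with 172 (rank 2356) and 286 (rank 937), at 193 bp, and a start of the phospholipid flippase gene ATP8A lay at 267 bp. Val-CAC-2-5 had 287, with 151 and 133, and Naam, a nicotinamidase gene, started 400 bp from the summit. Gly-TCC-1-2 (250.1, with 126 and 112) and Leu-TAA-2-1 (186, with 118 and 66.2) had CG31493 and CG13605 at 425 and 347 bp. In these 5 the tRNA start was the nearer one except at Val-CAC-2-5.

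Seen from the genes, 33 of 295 tRNA genes had a protein-coding TSS within 500 bp of their own. Of these, 6 had a final summit (18.2%, interval 6.98 to 35.5), against 14 of the 262 tRNA genes without such a neighbour (5.34%, interval 2.95 to 8.80). The intervals overlap, and the difference was not tested. The window also decides single genes: Val-CAC-2-5 (499 bp from its nearest final summit) and Thr-AGT-1-2 (488 bp) were counted, while Trp-CCA-2-6 (505 bp) and Gly-GCC-1-9 (530 bp) were not.

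**Figure D4:**
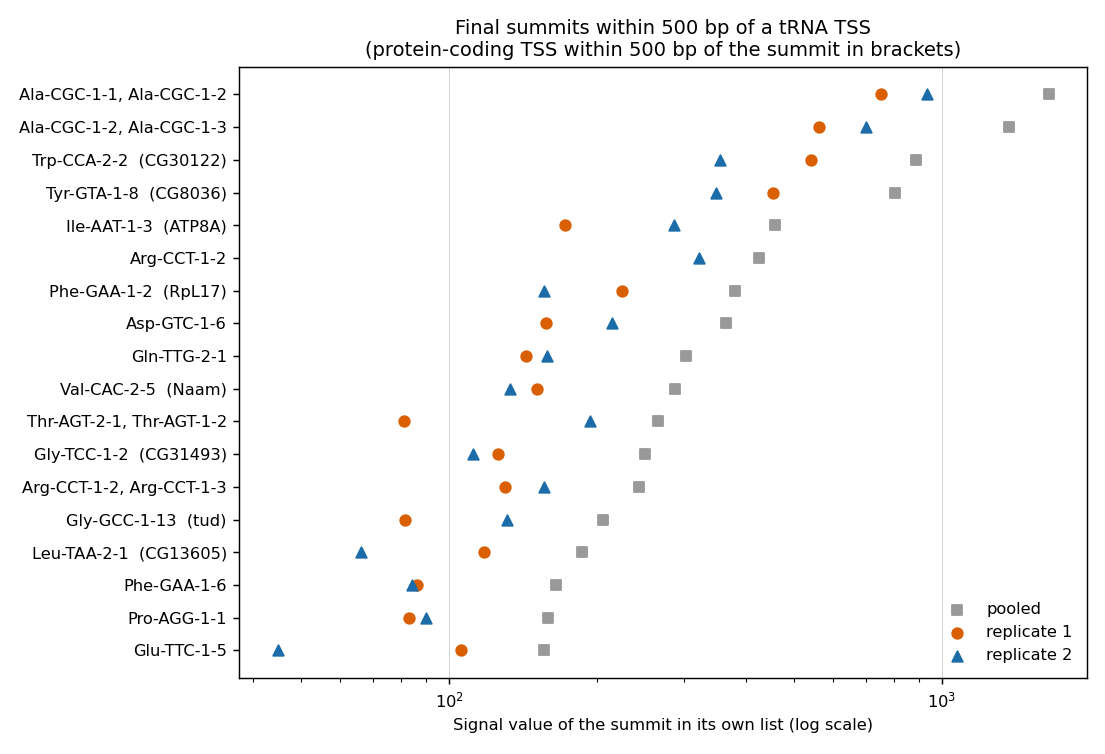
Signal on a log axis of the 18 final summits at tRNA genes in the pooled list and of the partner summit within 100 bp in each replicate, by tRNA gene, strongest at the top. Brackets name protein-coding genes with a start within 500 bp of the summit. All but 1 summit, the stronger one at Arg-CCT-1-2, have a value in both replicates.

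By isotype, final summits were spread thinly. The 295 genes fall into 22 isotypes, with initiator methionine and selenocysteine counted apart, and 14 isotypes had a final summit. Alanine, arginine, glycine and phenylalanine had 2 distinct final summits each, and 10 isotypes had 1. Alanine led by genes, with 3 of 17, all of them Ala-CGC.

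Counted by genes, candidates of any strength followed another order. Serine genes had a pooled candidate in 10 of 20 cases without any final peak. Proline and alanine had 9 of 17 each, and glutamate 2 of 21. Lysine had 2 of 19, and asparagine (10 genes), histidine (6) and elongator methionine (6) had none in the pooled list. Genes that share a summit are counted apart in this order. By distinct pooled summits, proline had 13, alanine and glycine 9 each, and serine, arginine and leucine 7 each. In replicate 2, candidates lay at more genes than in replicate 1 for 19 of the 22 isotypes, with 9 against 1 isoleucine genes and 12 against 4 serine genes. The excess was thus not limited to 1 isotype.

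**Figure D5:**
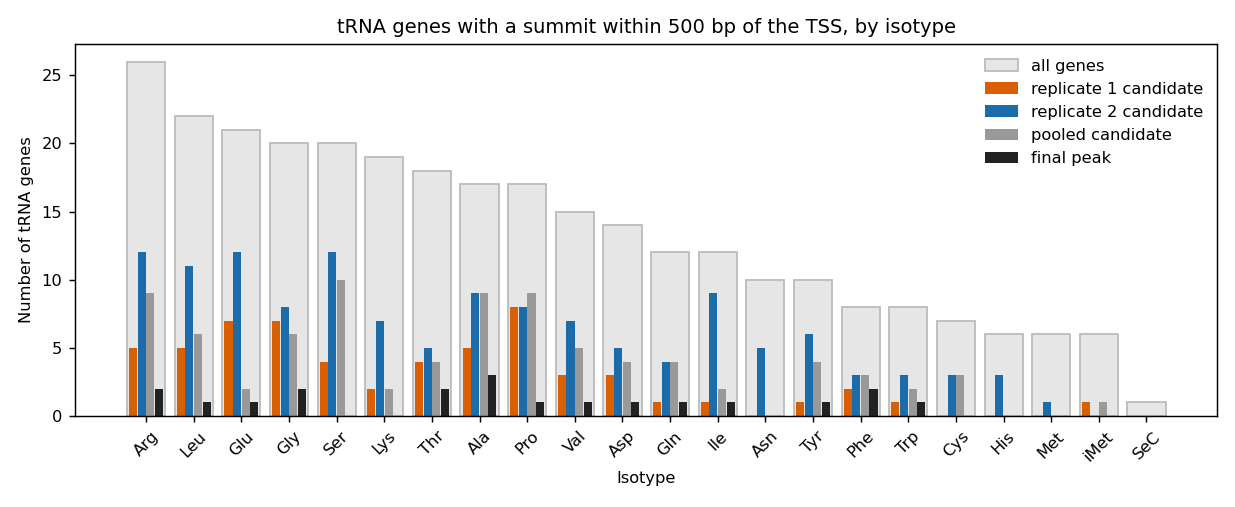
Number of tRNA genes of each isotype (grey background bars) and of those with a summit within 500 bp of the TSS in replicate 1, replicate 2, the pooled candidates and the final list. Of 20 serine genes, 10 have a pooled candidate, from 7 distinct summits, and none has a final peak. Alanine has 3 genes with a final peak.

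Clusters were formed from tRNA genes whose starts lay up to 5000 bp from the next. This gave 146 loci, of which 77 held 1 gene and 11 held 5 or more. A final summit lay at 16 loci (11%, interval 6.4 to 17.2) and a pooled candidate at 55 (37.7%, interval 29.8 to 46.1). Genes alone at a locus had a final summit in 6 of 77 cases (7.79%, interval 2.91 to 16.2) and those in clusters in 14 of 218 (6.42%, interval 3.56 to 10.5), and the intervals overlap.

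The 3 largest clusters held 1 final summit between them. The 11 genes on 3R from 17617761 to 17631750, of Ala-AGC, Pro-TGG, Thr-AGT, Val-AAC and Val-CAC, had 2 pooled summits and no final one. The 11 genes on 2R from 6161535 to 6171759, of Arg-ACG, Asn-GTT, Ile-AAT and Lys-CTT, had none in the pooled list. The cluster of 8 on 2R from 19725620 to 19729353, of Glu-CTC, Glu-TTC and iMet-CAT, had the summit at Glu-TTC-1-5 alone. In all, 2 of the 78 genes in clusters of 5 or more had a final summit (2.56%, interval 0.312 to 8.96), against 6.78% of all tRNA genes. Counted by locus, 2 of these 11 clusters had a final summit (18.2%, interval 2.28 to 51.8) and 8 a pooled one (72.7%, interval 39 to 94), against 11% and 37.7% of all loci.

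Within the cluster of 7 Ile-AAT and Leu-CAA genes on 2R, all 7 had a candidate in replicate 2 and 2 had one in replicate 1. Some of these genes shared a summit, as with those of 37 (rank 14640) and 24.4 (rank 24195) in replicate 2. No pooled summit was shared by more than 4 genes, and 3 were shared by 4. The strongest of these lay at Cys-GCA-1-1, Cys-GCA-1-2, Cys-GCA-1-3 and Lys-CTT-1-12 inside the chitinase gene Cht7, with a pooled signal of 92.6 and 57.4 in replicate 2. The other two lay among the Arg-ACG genes on 3R, at 8140317 (47.8) and 8140618 (42.7), and none of the 3 had a partner in replicate 1.

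The internal promoter words were common in tRNA genes with and without a peak. The B box core GTTCNANNC, read on the strand of the gene, was in 19 of 20 tRNA genes with a final summit (95%), in 91.8% of the 85 with a pooled candidate and in 93.3% of the 210 without one. It was in 1.7% of windows of 73 bp that begin at protein-coding starts. The A box core, TGGNNNAG or TAGCNNAG, was in 80% of genes with a final summit and in 66.2% of those without a candidate, against 5.75% of the same windows. A run of TTTT in the 30 bp after the gene was in 95% and 94.3%, against 20.4% of 30 bp windows at protein-coding starts.

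At the summits themselves, ACGTAA on either strand within 50 bp was found at 2 of 18 final summits, those of Arg-CCT-1-2 and Gly-GCC-1-13 (11.1%, interval 1.38 to 34.7), against 10.2% of all final summits. It was at 3 of the 61 other tRNA summits (4.92%, interval 1.03 to 13.7), against 4.01% of all non-final candidates. The run printed for Gly-TCC-1-2 also holds it, between the summit and the gene and outside that window. The same run shows TATCGATA, a word added after that sequence was seen, which was at 1 of 18 final tRNA summits and at 2.04% of all final summits. These counts are too small to tell the tRNA summits from others.

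Genes listed for making and processing tRNA also had summits at their own starts. Of 53 genes on a list by role, 22 had a final summit within 500 bp of a TSS (41.5%), against 25.1% of all protein-coding genes. A pooled candidate lay at 41 of the 53, against 50.5% of all protein-coding genes. The difference was not tested. Many of these summits also lay within 500 bp of another protein-coding start. Among 12 subunits of RNA polymerase III or shared with it, 3 had a final summit (25%), about as often as protein-coding genes in general. They were Polr3E (808, also near CG10584), Polr1D (269, also near brat) and Polr3A (230.4). Of 5 transcription factors and regulators, the TATA-binding protein gene Tbp (16396, rank 9), and the TFIIIB genes Bdp1 (1115, also near CG6565) and Brf (680.0, also near sds22) had one. Trf, which encodes the TBP-related factor used by RNA polymerase III in flies, and the repressor gene Maf1 had no pooled candidate, although Maf1 had a weak one in replicate 1 (30.6).

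Downstream steps were covered in part. For 3′ end binding and processing, 3 of 5 listed genes had a final summit. They were CG13625 (387, also near mld), the La protein gene La (300.1, also near RtGEF) and the 3′ endonuclease gene RNaseZ (258, also near CG12909). The role of CG13625 in tRNA processing is uncertain, and it is counted here and in the total only as a listed gene. Of 6 splicing genes, the endonuclease subunit gene Tsen54 (214) and Archease (157), a cofactor of the tRNA ligase, had one. Of the export genes, emb (355, also near fy), the exportin 1 gene, had one and Ranbp21 had a weaker candidate (139, also near Elys). Among 23 modification genes, 10 had one, led by the pseudouridine synthase gene Pus1 (14456, rank 12, with bon within 500 bp of the same summit). Tcs5 (1417, with CHMP2B), for the threonylcarbamoyl modification, and the Elongator subunit gene Elp6 (1154, with Dic1) followed.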

How the data were processed

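Peak lists from 2 biological replicates of 1 group were used, assembly dm6 per the labels. Manifests deposited beside the lists state that each replicate's candidates come from its alignments and 1 control alignment, the pooled candidates from both, and the final list from all 3 by irreproducible discovery rate. The sources used here do not name the aligner, peak caller or threshold. The signal per peak is the authors' value and was used within a list only. Their −log10 q values, also deposited by the authors, were left aside.

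Summits (peak start plus offset) were placed on starts of Ensembl release 115. Sequence came from the Release 6 reference, whose arms hold every region. All transcript starts of a gene were used, transposable elements were left out, and replicate summits within 100 bp were partners. Counting used pandas 2.3.3 and numpy 2.4.6 under Python 3.11.15, intervals scipy 1.17.1, and plots matplotlib 3.10.9. Shares carry exact Clopper-Pearson 95% intervals for counting error. With 1 group no test between groups was possible, and no set test was run. Counting was tested on simulated data.

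The members, lists and words were chosen with earlier results of these data known. Named genes are all tRNA genes with a final summit, the 5 strongest without one, those at the edge of the window, the 3 largest clusters, and the 3 strongest pathway genes per role. His-GTG-1-3, the genes at summits shared by 4, the loci drawn, Trf, Maf1, the pseudogenes and SeC-TCA-1-1 were named after their values were seen. Of the pathway symbols, 53 matched a gene and 29, older symbols among them, did not. Alternatives were windows of 250 and 1000 bp, nearest start only, distance to the gene body, each replicate alone, final peaks above the median signal, narrower and wider cluster gaps and, chosen after seeing the data, genes of tRNA biotype only.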

Additional observations from a re-analysis of the deposited data

How the results depend on the processing

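The counts depend mainly on the window around the start. With 250 bp instead of 500 bp, 35 tRNA genes had a pooled candidate (85 as reported), 7 a final summit (20) and 13 a candidate in both replicates (45), with 35 distinct pooled summits (79), 8 final ones (18), 1 of these with a protein-coding start within the same 250 bp (8 within 500 bp) and 7 loci (16). With 1000 bp for both distances the numbers were 157, 39, 101, 156, 30, 16 and 26. The counts near a protein-coding start thus changed through both distances. When a summit counted only for its nearest start of any gene, 55 tRNA genes had a pooled candidate, 12 a final summit, and 4 of the final summits had a protein-coding start within 500 bp. Among final peaks at or above the median signal, a shorter list by construction, 13 genes, 11 distinct summits, 5 near a protein-coding start and 10 loci were left.

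With 1 replicate's list in place of the pooled and final ones, genes with a candidate ranged from 60 without replicate 2 to 133 without replicate 1, and distinct summits from 57 to 133. Genes with a summit among the 6091 strongest ranged from 19 to 25, distinct summits from 17 to 21, those near a protein-coding start from 8 to 9 and loci from 16 to 17. The cause was not tested. The other alternatives run (gene body, other cluster gaps, replicate summits within 100 bp of each other, and tRNA biotype only, which was chosen after seeing the data) stayed within 1.5 times the reported count. No paired analysis was possible because the replicates belong to 1 group. Read depth is unknown, so an absent summit does not show that a gene was unbound.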

Other observations

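The 5 annotated tRNA pseudogenes had no pooled or final summit within 500 bp. In replicate 2, Glu-CTC-5-1Psi had a candidate of 37.7 (rank 14306) and His-GTG-2-1Psi one of 27.1 (rank 21396). The B box core was in 3 of the 5 pseudogenes and TTTT after 4 of them, against 92.9% and 95.3% of all 295 members. The single selenocysteine gene, SeC-TCA-1-1, had no candidate in any list.

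By chromosome arm, 2R held 100 of the tRNA genes and 11 of the 20 with a final summit, and 3R held 79 and 5. Arm 3L held 49 tRNA genes, 11 of them with a pooled candidate and 0 with a final summit. Genes that share a summit are counted apart here, and no share over all genes of each arm stands beside these counts. A difference between arms was not tested. In replicate 2, 54 genes on 2R had a candidate, and in replicate 1 there were 17. Of the 295 tRNA genes, 137 lie inside a protein-coding gene. Of these, 9 had a final summit (6.57%, interval 3.05 to 12.1), against 11 of the 158 outside protein-coding genes (6.96%, interval 3.53 to 12.1).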
